A study of Arabidopsis thaliana with 24 samples.

Results

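mRNA bound to small polysomes was compared between Arabidopsis thaliana seedlings kept in darkness with sucrose and seedlings kept in the light with sucrose. The comparison uses 6 of the 24 arrays of the series, 3 of the dark sucrose treatment and 3 of the light sucrose treatment, taken by the treatment and the RNA fraction that their labels give. Col-0 seedlings were cultured in liquid medium in constant light, and their age was 7 days by the labels and 10 days by the study's methods. Sucrose was added at 150 mM for 6 h, in flasks wrapped in foil (dark sucrose) or left in the light (light sucrose). The dark control and the light control received sorbitol at 150 mM for the same time and are used here only to set the effect of darkness with sucrose beside that without it. Each of the replicates, numbered 7, 8 and 9 within every treatment, was a separate culture of whole seedlings. The total RNA of a culture came from the same extract as its polysomes, so that steady-state and polysomal levels are available for each of the 12 cultures.

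A polysome is an mRNA that carries several ribosomes, and its density in a sucrose gradient separates it from free mRNA and single ribosomes. The mRNA level in the polysomal fraction follows both the amount of the mRNA in the cell and the share of it that is loaded with ribosomes. In plants, light drives photosynthesis and acts through photoreceptors, whereas sucrose is both the transported product of photosynthesis and a signal that represses photosynthetic genes and favours growth. Seedlings in darkness with sucrose therefore have a sugar supply without light, and the comparison with light sucrose asks what light contributes when sugar is present. All levels below are log2 array values after the authors' normalization, and a change is the mean log2 value of dark sucrose minus that of light sucrose, with the SE of the fit. An array value is relative to the other mRNAs on that array, so the total amount of polysomal RNA per seedling is not part of it. In whole seedlings, fewer cells of a type and less RNA per cell cannot be told apart.

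The median level lay between 5.95 and 6.06 on the 6 arrays, and the mean correlation of an array with the others of its group lay between 0.984 and 0.990. Replicate 9 stood apart within both groups. The SD of its deviations from the group mean was 0.271 in dark sucrose, against 0.179 and 0.209 for replicates 7 and 8, and it was 0.241 in light sucrose, against 0.185 and 0.194. Both arrays of replicate 9 deviated in the same direction for the changed features described below. Among the rises, the median deviation from the group mean was 0.272 in dark sucrose and 0.236 in light sucrose. Among the falls it was −0.272 and −0.124. Light sucrose replicate 9 thus lay toward the dark sucrose level for a subset of genes, and dark sucrose replicate 9 lay further from light sucrose. Among 64 of the rises that had a light sucrose SD over 0.8, light sucrose replicate 9 was the light array nearest to dark sucrose in 59. Among 34 falls of this kind it was the nearest in 27. Counts of groups of genes are therefore given also without replicate 9, or without the array or replicate that moved them most. Shoot and root material were both present on all 6 arrays. The median level of the 44 photosystem and light harvesting genes was 10.35 to 11.15 in dark sucrose and 11.31 to 12.08 in light sucrose. That of the 11 root markers was 6.51 to 6.88 in dark sucrose and 6.44 to 7.25 in light sucrose. Of the root markers, 0 changed by more than 2-fold and 1, SCR, fell at an adjusted p under 0.05 (−0.41). Of the 6 guard cell and stomatal lineage markers, only SPCH fell (−0.96), again by less than 2-fold. Over all features, 5.02% rose and 3.45% fell by more than 2-fold, and 15.1% fell at any size. With so few markers, these counts do not set either list apart from other features.

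Polysomal mRNA levels differed widely between dark sucrose and light sucrose. Of 30386 gene features on the array, 2573 changed by more than 2-fold at an adjusted p under 0.05 (limma, Benjamini-Hochberg). Of these, 1524 rose in dark sucrose, which is 5.02% of all features, and 1049 fell, which is 3.45%. The median change was 1.5 among the rises and −1.29 among the falls. Rises were the larger changes. A change of more than 8-fold was found for 89 rises and 10 falls, and one of more than 4-fold for 396 rises and 87 falls. Without the fold requirement, 4077 features rose (13.4%) and 4584 fell (15.1%), and the median change over all features was −0.05. The 3 dark sucrose arrays did not overlap with the 3 light sucrose arrays for 1509 of the rises and 1042 of the falls, a property shared by 39.5% of all features. Without replicate 9, 2519 features changed (1587 rises and 932 falls), of which 2208 were among the 2573. Without light sucrose replicate 9 alone, 2926 changed.

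The largest rise was that of AT3G46080, a locus on the list of ERF and ZAT factors. Its level was 10.13, 10.07 and 11.25 in dark sucrose, against 4.26, 4.80 and 6.58 in light sucrose, a 38.5-fold difference (5.27 ± 0.51, adjusted p = 2.3e-07). The array places it on chromosome 3 from 16922753 to 16923247 on the minus strand, close to ZAT7 (16926216 to 16926850, same strand), which codes for a C2H2 zinc finger protein. ZAT7 was measured at 9.44, 9.71 and 10.12 in dark sucrose and at 5.62, 5.18 and 5.75 in light sucrose (4.24 ± 0.29, adjusted p = 2.8e-09). The positions come from the array's feature names, which do not state a build. Whether the probes of both genes share signal was not tested.

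DIN2, a beta-glucosidase gene named for its induction in darkness, showed the second largest rise. Its level was 10.21, 10.46 and 10.90 in dark sucrose and 5.42, 5.16 and 5.44 in light sucrose, a 36.3-fold difference (5.18 ± 0.21, adjusted p = 2.8e-12). BGLU28, another beta-glucosidase, was at 9.26, 9.58 and 10.04 in dark sucrose and at 4.88, 4.70 and 5.01 in light sucrose (4.76 ± 0.19). All 3 dark arrays of both genes lay more than 4-fold above all light arrays. BCA3, a beta carbonic anhydrase, was likewise well separated, at 10.39, 10.63 and 11.07 in dark sucrose and 6.08, 5.76 and 6.58 in light sucrose (4.56 ± 0.29).

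AOX1D codes for an alternative oxidase of the mitochondrial respiratory chain, which passes electrons to oxygen without pumping protons. Its level was 11.52, 11.53 and 12.03 in dark sucrose and 5.39, 5.98 and 9.16 in light sucrose (4.85 ± 0.83, adjusted p = 0.00015). Here light sucrose replicate 9 lay far above the other light arrays, although below all dark arrays. The same array was the highest of its group for PAD3, the cytochrome P450 that completes camalexin synthesis, an antimicrobial compound. PAD3 was at 10.78, 10.50 and 10.58 in dark sucrose and at 5.85, 5.84 and 7.47 in light sucrose (4.23 ± 0.42, adjusted p = 3.6e-07). AT1G56060 (5.10 ± 0.29) and AT5G57510 (4.58 ± 0.67) showed this feature as well, with 6.42 and 6.49 in light sucrose replicate 9. For AT2G36770 (4.33 ± 0.40) it was dark sucrose replicate 9 that was highest, at 10.64, against 8.84 and 9.10 in the other dark arrays and 4.93 to 5.59 in light sucrose. The remaining members of the 12 largest rises, AT1G53540 and HSP17.6II, are on the heat shock list and are described with it.

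**Figure D1:**
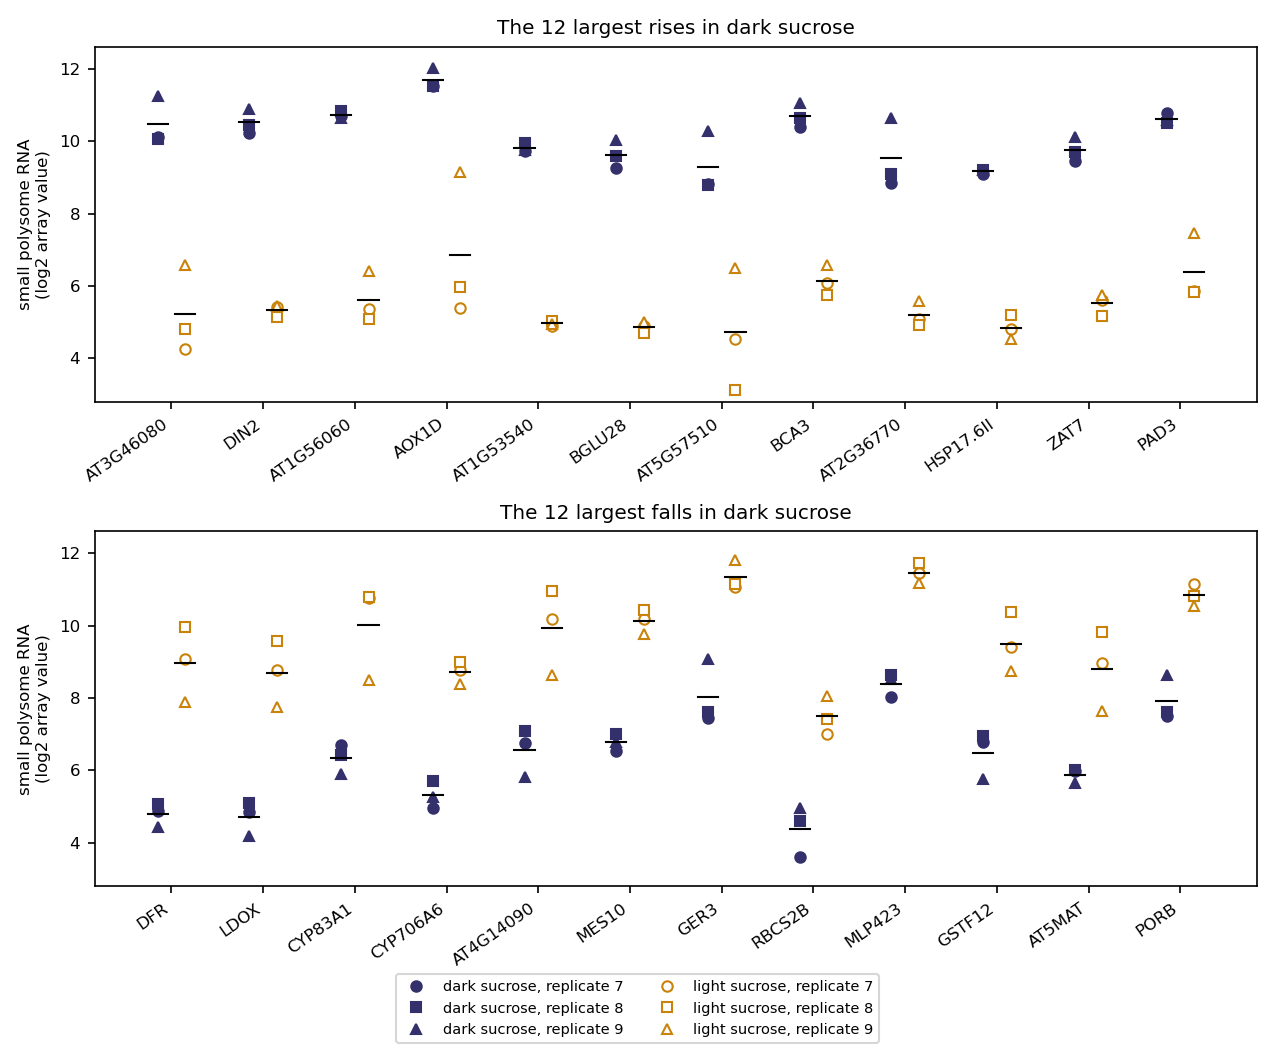
Log2 array values of small polysome RNA for the 12 largest rises (top) and the 12 largest falls (bottom), dark sucrose as filled symbols on the left of each gene and light sucrose as open symbols on the right. Each symbol is 1 array, its shape gives the replicate number and the black line is the group mean; light sucrose replicate 9 lies nearest to dark sucrose for AOX1D (9.16) and for DFR (7.88).

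The 2 largest falls, and 5 of the 12 largest, were those of anthocyanin genes. DFR, dihydroflavonol reductase, was at 4.89, 5.08 and 4.44 in dark sucrose and at 9.07, 9.97 and 7.88 in light sucrose, an 18.1-fold difference (−4.18 ± 0.48, adjusted p = 2.0e-06). LDOX, leucoanthocyanidin dioxygenase, which acts directly after DFR in the pathway, was at 4.87, 5.09 and 4.18 in dark sucrose and at 8.78, 9.58 and 7.75 in light sucrose (−3.99 ± 0.52). Both groups were far apart for both enzymes, and light sucrose replicate 9 was the lowest light array. GSTF12, the glutathione transferase needed to carry anthocyanins into the vacuole, was at 6.78, 6.94 and 5.75 in dark sucrose and at 9.40, 10.37 and 8.74 in light sucrose (−3.01 ± 0.45). AT5MAT, an anthocyanin malonyltransferase, was at 5.98, 6.01 and 5.64 in dark sucrose and at 8.96, 9.81 and 7.63 in light sucrose (−2.92 ± 0.45). AT4G14090, on the same list, was at 6.77, 7.10 and 5.81 in dark sucrose and at 10.17, 10.95 and 8.64 in light sucrose (−3.36 ± 0.54). None of these groups overlapped.

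Other genes among the 12 largest falls had different roles. CYP83A1, a cytochrome P450 of aliphatic glucosinolate synthesis, was at 6.71, 6.43 and 5.91 in dark sucrose and at 10.75, 10.79 and 8.5 in light sucrose (−3.66 ± 0.67, adjusted p = 0.00028). CYP706A6, a P450 of a further family, was at 4.95, 5.72 and 5.27 in dark sucrose and at 8.77, 8.99 and 8.39 in light sucrose (−3.41 ± 0.21, adjusted p = 8.6e-10). PORB, the light-dependent protochlorophyllide oxidoreductase that makes chlorophyllide, was at 7.51, 7.61 and 8.63 in dark sucrose and at 11.16, 10.82 and 10.53 in light sucrose (−2.92 ± 0.26, adjusted p = 7.6e-08). RBCS2B, a gene for the small subunit of Rubisco, fell by 3.11 ± 0.41. MES10 (a methylesterase, −3.35 ± 0.30), GER3 (a germin-like protein, −3.31 ± 0.43) and MLP423 (−3.06 ± 0.22) completed the 12.

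Genes of the flavonoid and anthocyanin pathway fell together. Of 32 genes on the list, 15 fell by more than 2-fold and 0 rose, beside 3.45% and 5.02% of all features, and the median change was −1.16, against −0.05 over all features. Besides the enzymes above, the falls included PAP1, the MYB activator of anthocyanin genes. PAP1 was at 7.11, 7.58 and 4.62 in dark sucrose and at 8.49, 9.33 and 7.66 in light sucrose (−2.06 ± 0.59, adjusted p = 0.011), so that dark replicate 9 was far below the other dark arrays and the highest dark array lay just below the lowest light array. TT8, a bHLH partner of PAP1, fell by 1.77, and F3H, which makes dihydroflavonols, fell by 1.80. TT4, chalcone synthase, the entry enzyme of the pathway, did not pass the test. Its level was 10.43, 10.36 and 7.63 in dark sucrose and 11.49, 12.17 and 10.80 in light sucrose (−2.01 ± 0.87, adjusted p = 0.096). General phenylpropanoid genes upstream of the pathway did not pass the test (PAL1 0.04, C4H −0.04, 4CL1 0.16), and PAL4 rose by less than 2-fold (0.90). Without replicate 9, 15 of the 32 fell by more than 2-fold, with a median of −0.94, and without replicate 7, 13 fell by more than 2-fold. All falls, of any size, numbered 21, and 13 without replicate 7.

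Photosynthetic genes of the nucleus were lower in dark sucrose. Of the 44 photosystem and light harvesting genes, 17 fell by more than 2-fold, beside 3.45% of all features, 27 fell at any size and 0 rose, with a median change of −0.81. PSAD-1, a subunit of photosystem I at the ferredoxin docking side, was at 9.39, 9.64 and 9.29 in dark sucrose and at 11.80, 11.93 and 10.90 in light sucrose (−2.10 ± 0.28, adjusted p = 1.0e-05). LHCB4.2, a minor antenna protein of photosystem II, was at 11.30, 11.23 and 10.75 in dark sucrose and at 13.09, 13.11 and 12.61 in light sucrose (−1.85 ± 0.21). Both were separated on all arrays. LHCB3 (−2.02 ± 0.31) and CAB3 (−2.05 ± 0.47) also code for antenna proteins of photosystem II. The antenna genes CAB1 (−0.40, adjusted p = 0.36) and CAB2 (0.10, adjusted p = 0.91) did not pass the test, and CAB2 was measured at only 2.06 to 3.01 in dark sucrose and 2.24 to 2.8 in light sucrose. CAB1, CAB2 and CAB3 are near-identical copies, so how their probes share signal is uncertain. Without replicate 9, 16 of the 44 fell by more than 2-fold. The arrays of that replicate moved the count in opposite directions, with 10 falls without dark sucrose replicate 9 alone and 22 without light sucrose replicate 9 alone, and it was 9 without replicate 7.

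The chlorophyll synthesis list showed falls of most of its called genes and rises of FC1 and HEMA2. Of 29 features of 28 genes, 13 fell by more than 2-fold and 3 rose, beside 3.45% and 5.02% of all features, and the median change was −0.93. After PORB, the largest falls were those of POR C (−2.39 ± 0.40), a second oxidoreductase of the same step, and GUN4 (−2.03 ± 0.24), an activator of magnesium chelatase. GUN4 was at 9.58, 9.74 and 9.26 in dark sucrose and at 11.65, 11.76 and 11.25 in light sucrose. CHLI1, a subunit of this chelatase, fell by 1.43, and CHLM, its successor in the pathway, fell by 1.59 ± 0.26. PORA, the oxidoreductase associated with etiolated tissue, was at −0.36 and did not pass the test. The rises were both features of FC1 (1.37 and 1.4) and HEMA2, a glutamyl-tRNA reductase (1.32). FC1 is a ferrochelatase, which inserts iron rather than magnesium and is not on the branch to chlorophyll. FC2, the ferrochelatase linked to photosynthetic tissue, fell by 1.38. Without replicate 9, 15 features fell and 3 rose, and without replicate 7, 9 fell and 3 rose.

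The Calvin-Benson cycle was affected in part. Of 21 genes, 7 fell by more than 2-fold and 1 rose, beside 3.45% and 5.02% of all features, with a median of −0.57. RBCS2B was at 3.6, 4.60 and 4.96 in dark sucrose and at 7.02, 7.43 and 8.05 in light sucrose, and RBCS1B (−2.31 ± 0.45) at 3.46, 5.23 and 3.94 in dark sucrose and 6.41, 6.92 and 6.22 in light sucrose. These genes lie side by side on chromosome 5 (15380945 to 15382035 and 15384117 to 15385247, minus strand) and are near-identical in sequence, so their separate values are uncertain. RBCS1A, another small subunit gene, fell by less than 2-fold (−0.50), and RCA, Rubisco activase, was at 0.00. CP12-1 (−1.46 ± 0.25) and CP12-2 (−1.61 ± 0.39), small proteins that hold cycle enzymes in an inactive complex, fell, whereas CP12-3 rose by 1.19. Without replicate 9, 4 genes of this list fell by more than 2-fold, and the median was −0.36. The count was also 4 without replicate 7, without light sucrose replicate 8 and without dark sucrose replicate 9, where the median was −0.24. Of the 84 features of the chloroplast genome, 0 changed by more than 2-fold and 6 fell at any size, beside 15.1% of all features, and the median was −0.13. The falls of any size numbered 0 without replicate 7 and 13 without light sucrose replicate 7. The median occupancy change of these features, polysomal level over steady-state level, was −0.23, against 0.00 over all features, with 8 of the 84 above 0. An unadjusted p under 0.05 (limma) was found for 27 of the 84, beside 1425 of all 30386 features. Polysomes in the gradient can hold chloroplast ribosomes as well as cytosolic ribosomes, and how much of each was present was not measured here.

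Starch metabolism was lower in dark sucrose, with 10 of 37 genes falling by more than 2-fold, beside 3.45% of all features, 22 at any size, 0 rising by more than 2-fold, and a median change of −0.68. PHS1, the plastidial glucan phosphorylase, was at 7.67, 7.73 and 7.68 in dark sucrose and at 10.10, 9.88 and 9.62 in light sucrose (−2.17 ± 0.14, adjusted p = 1.3e-09). APL3, a large subunit of ADP-glucose pyrophosphorylase, which commits carbon to starch, was at 8.99, 9.11 and 7.99 in dark sucrose and at 10.56, 10.57 and 10.22 in light sucrose (−1.75 ± 0.30). Genes of synthesis (APL3, APL4, SS2) and of breakdown (PHS1, PHS2, ISA3) were both among the falls. Without replicate 9, 11 genes fell by more than 2-fold, and without replicate 7, 14 fell at any size.

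Heat shock proteins showed the largest median rise of the lists examined, 1.19 over 43 genes. Of these, 23 rose by more than 2-fold and 2 fell, beside 5.02% and 3.45% of all features. Small heat shock proteins bind unfolding proteins and are barely expressed without stress. AT1G53540 was at 9.73, 9.94 and 9.75 in dark sucrose and at 4.91, 5.04 and 4.96 in light sucrose, a 28.5-fold difference with almost no spread within the groups (4.83 ± 0.17, adjusted p = 2.9e-13). HSP17.6II was at 9.09, 9.21 and 9.21 in dark sucrose and at 4.82, 5.18 and 4.54 in light sucrose (4.32 ± 0.21). AT2G29500 was at 9.92, 9.77 and 9.76 in dark sucrose and at 5.88, 5.96 and 6.09 in light sucrose (3.84 ± 0.12). Dark and light arrays of these genes were separated by more than 3 on the log2 scale. HSP17.4 (3.93 ± 0.25), HSP18.2 (3.68) and the chloroplast protein HSP21 (3.75 ± 0.23) followed. Within the small heat shock family the probes of close relatives may share signal.

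The large chaperones changed less. HSP101, a disaggregase, was at 8.16, 8.28 and 8.88 in dark sucrose and at 6.50, 6.10 and 7.05 in light sucrose (1.89 ± 0.22). HSP90.1, the stress form of HSP90, rose by 2.14 ± 0.33. The constitutive HSP90 genes HSP81-3 (−0.97) and Hsp81.4 (−0.33), by contrast, fell by less than 2-fold, as did the constitutive HSC70-1 (−0.39). Of the transcription factors that drive the response, HSFA2 (1.23 ± 0.23), HSFA3 (2.18) and DREB2A (1.85 ± 0.23), the activator of HSFA3, rose, while HSF1 (0.01) and HSFA1D (0.09) did not pass the test. The falls were AT4G21870 (−1.61) and AT5G47600 (−1.44). BIP3, the stress form of the endoplasmic reticulum chaperone BiP, rose by 1.04 ± 0.24. Without replicate 9, 24 of the 43 genes rose by more than 2-fold and the median was 1.31.

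**Figure D2:**
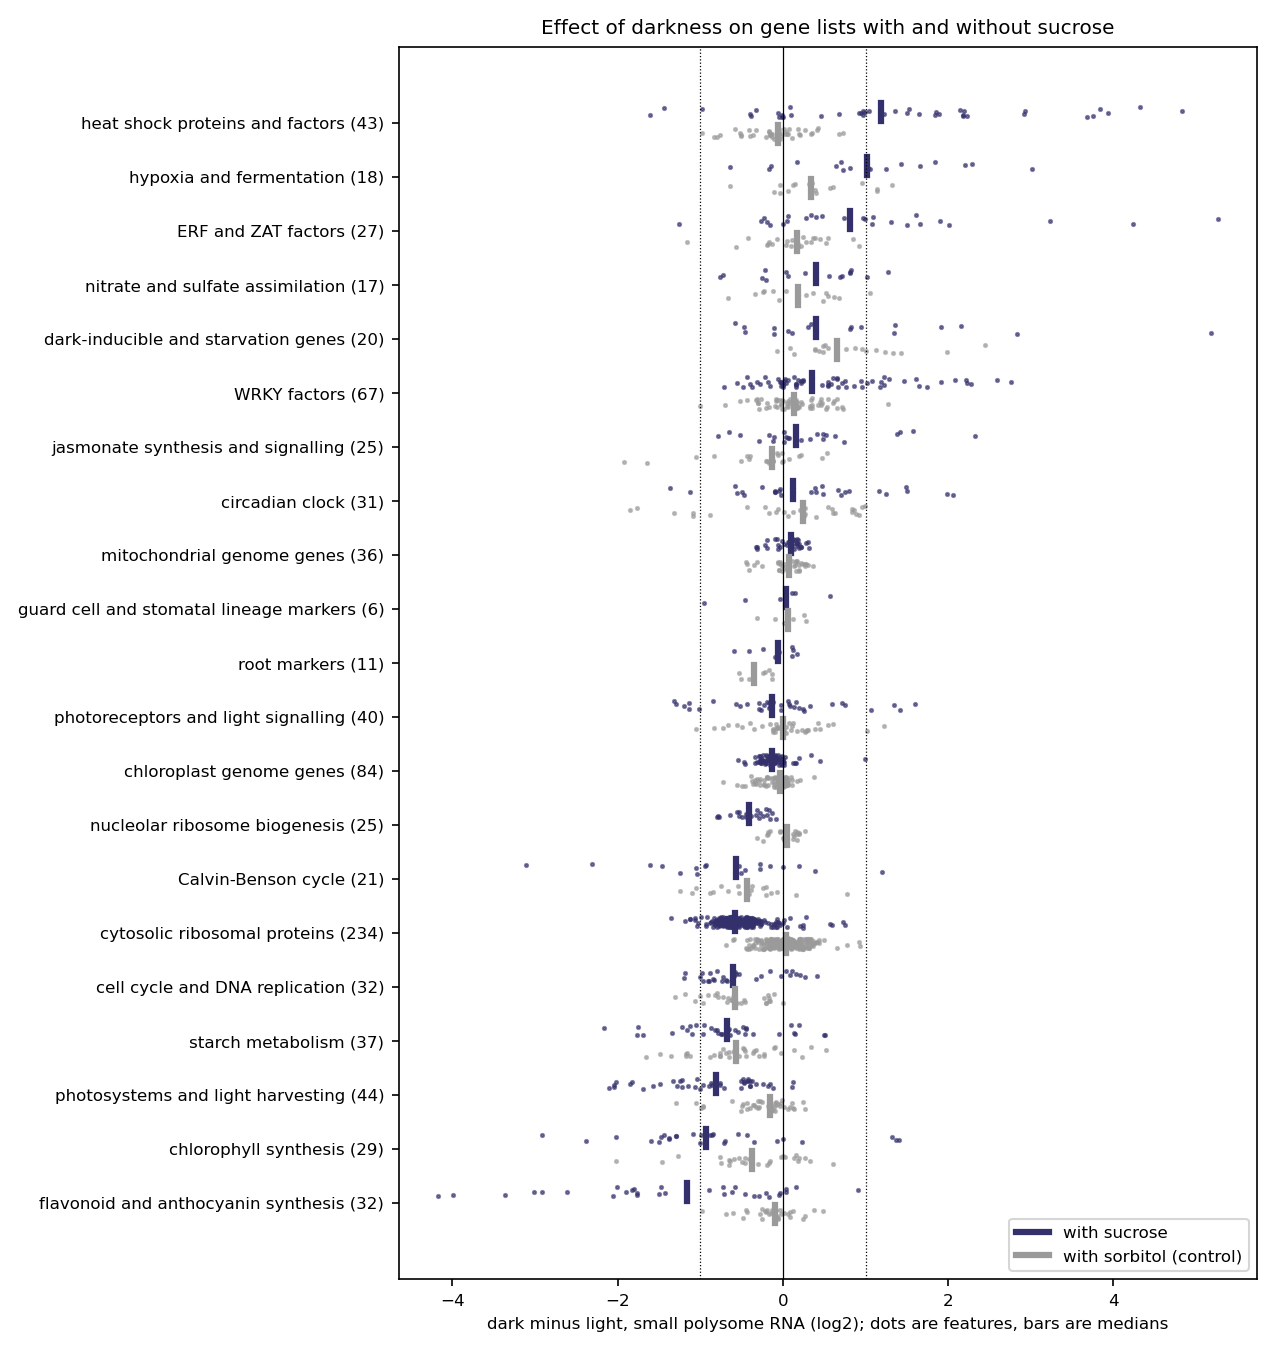
Change of polysomal mRNA level in darkness (log2, dark minus light) for the features of 21 gene lists, with sucrose in blue above and with sorbitol in grey below. Dots are features, thick bars are medians, the number of features stands in brackets and dotted lines mark 2-fold; heat shock proteins have a median of 1.19 with sucrose and −0.05 with sorbitol, and flavonoid genes −1.16 and −0.10.

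Part of the ERF, ZAT and WRKY factors rose. Of 27 ERF and ZAT factors, transcription factors that respond to ethylene, wounding and oxidative stress, 11 rose by more than 2-fold and 1 fell, beside 5.02% and 3.45% of all features, with a median of 0.81, and 12 did not pass the test at any size. RHL41, also known as ZAT12, lay between 9.71 and 10.65 in dark sucrose and was at 6.55, 6.37 and 7.76 in light sucrose (3.23 ± 0.35, adjusted p = 1.1e-06). STZ, also known as ZAT10, was at 10.70, 10.62 and 11.37 in dark sucrose and at 9.26, 8.09 and 9.62 in light sucrose (1.91 ± 0.37). Replicate 9 was the highest array of both groups for both genes. ERF1 (1.62) and ERF-1 (1.5) rose, and the fall was that of ORA59 (−1.26). Of 67 WRKY factors, a plant family best known from defence, 17 rose by more than 2-fold and 0 fell, beside the same shares, and the median was 0.35. WRKY40 was at 11.07, 11.04 and 11.11 in dark sucrose and at 8.98, 8.31 and 9.11 in light sucrose (2.27 ± 0.21, adjusted p = 1.2e-07). WRKY75 was at 8.18, 8.37 and 9.55 in dark sucrose and at 5.40, 5.94 and 6.46 in light sucrose (2.77 ± 0.43). WRKY55 (2.60 ± 0.29), WRKY45 (2.22 ± 0.40) and WRKY28 (2.22 ± 0.33) also rose, whereas 39 members did not pass the test at any size. Without replicate 9, 12 ERF and ZAT factors and 18 WRKY factors rose by more than 2-fold.

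Jasmonate genes changed less. Of 25 genes, 4 rose by more than 2-fold and 0 fell, beside 5.02% and 3.45% of all features, and the median was 0.16. Without replicate 9, 4 rose and the median was 0.31. LOX4, a lipoxygenase, was at 10.42, 10.36 and 11.06 in dark sucrose and at 8.55, 7.78 and 8.53 in light sucrose (2.33 ± 0.23). AOC3 (1.42 ± 0.18), allene oxide cyclase, ACX1 (1.58 ± 0.15), an acyl-CoA oxidase, and JAZ5 (1.38 ± 0.16), a repressor of the pathway, were the others. AOS, allene oxide synthase, fell by less than 2-fold (−0.52), and the storage protein genes VSP1 (−0.29) and VSP2 (−0.12) did not pass the test.

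Genes of hypoxia and fermentation had a median change of 1.02. Of 18 genes, 7 rose by more than 2-fold and 0 fell, beside 5.02% and 3.45% of all features. HB1, a non-symbiotic haemoglobin that scavenges nitric oxide under low oxygen, was at 10.13, 10.46 and 11.01 in dark sucrose and at 7.02, 6.71 and 8.84 in light sucrose (3.01 ± 0.57, adjusted p = 0.00042). AT4G33070, pyruvate decarboxylase 1, was at 10.92, 10.95 and 11.80 in dark sucrose and at 8.5, 8.44 and 10.12 in light sucrose (2.21 ± 0.42). AT4G17260 was at 12.64, 12.69 and 13.06 in dark sucrose and at 10.08, 10.16 and 11.29 in light sucrose (2.29 ± 0.30). For all 3 genes light sucrose replicate 9 lay more than 2-fold above the other light arrays and below every dark array. SUS1, a sucrose synthase, did not share this feature (1.66 ± 0.17). ADH1, alcohol dehydrogenase, rose by 1.24, whereas AT4G10270 (−0.64) and AT3G10040 (−0.14) did not pass the test. Without light sucrose replicate 9, 9 of the 18 rose by more than 2-fold and the median was 1.21. Without dark sucrose replicate 9, 5 rose and the median was 0.66, and without replicate 9 in all treatments 9 rose.

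Of 20 dark-inducible and starvation genes, 6 rose by more than 2-fold, beside 5.02% of all features, 0 fell by more than 2-fold and 2 fell by less, with a median of 0.40. Without replicate 9, 6 rose and the median was 0.29. After DIN2, the largest rises were those of TPS11 (2.83 ± 0.37), a trehalose-phosphate synthase family member of class II, and DIN11 (2.15 ± 0.24), a dioxygenase. TPS11 was at 7.36, 7.73 and 8.95 in dark sucrose and at 5.16, 5.0 and 5.38 in light sucrose. TPS10 (1.91 ± 0.26), TPS9 (1.34) and AT3G15450 (1.36 ± 0.23) were the other rises. Much-used markers of carbon starvation did not pass the test. ASN1, also known as DIN6 and coding for asparagine synthetase, was at 6.14, 6.54 and 5.93 in dark sucrose and at 6.08, 6.21 and 6.0 in light sucrose (0.10 ± 0.33). BCAT-2, an aminotransferase of branched-chain amino acid breakdown, was at 4.69, 4.50 and 4.67 in dark sucrose and at 4.42, 4.50 and 4.75 in light sucrose (0.06 ± 0.23). These BCAT-2 levels are low, just above the lower quartile of the 6 arrays (4.05 to 4.25). IVD (0.34 ± 0.23) and MCCA (0.40 ± 0.21), enzymes of leucine breakdown, were likewise not called, and MCCB, the partner subunit of MCCA, fell by less than 2-fold (−0.47).

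Light signalling and circadian clock genes changed in both directions. Of 40 photoreceptor and light signalling genes, 4 rose and 6 fell by more than 2-fold, beside 5.02% and 3.45% of all features, and the median was −0.13. Without replicate 9, 4 rose and 4 fell, and without replicate 7, 3 rose and 3 fell. HYH, a bZIP relative of HY5, was at 9.20, 9.40 and 8.93 in dark sucrose and at 7.17, 7.68 and 7.88 in light sucrose (1.60 ± 0.22), while HY5 itself was at −0.16 and did not pass the test. PHYD, a phytochrome, rose by 1.41 ± 0.13. GLK2 (−1.31 ± 0.24) and GPRI1, its relative GLK1 (−1.13), activators of chloroplast genes, fell, as did PIF4 (−1.20), PHOT2 (−1.14) and PKS1 (−1.29 ± 0.17). SIGE, a plastid sigma factor, rose by 1.34 ± 0.37, but neither without replicate 7 (adjusted p = 0.076) nor without replicate 8 (adjusted p = 0.099) did it pass. Of 31 clock genes, 5 rose and 2 fell, beside the same shares. Without replicate 9, 7 rose and 2 fell, and without replicate 8, 3 rose and 2 fell. CDF2, a repressor of CONSTANS, was at 9.73, 9.77 and 10.09 in dark sucrose and at 7.94, 7.85 and 7.63 in light sucrose (2.06 ± 0.19, adjusted p = 1.2e-07). CCA1, a morning factor of the clock, rose by 1.16, and RVE1 (1.5 ± 0.25), a relative of it, rose too. GI was at 7.73, 7.50 and 8.21 in dark sucrose and at 9.16, 8.88 and 8.79 in light sucrose (−1.13 ± 0.22). TOC1 (0.48) and ELF3 (−0.10) did not pass the test.

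mRNAs for the translation machinery shifted together by small amounts. Of 234 features of 230 cytosolic ribosomal protein genes, 172 fell at an adjusted p under 0.05 and 4 rose, beside 15.1% and 13.4% of all features, but only 8 fell by more than 2-fold. The median change was −0.58, with changes from −1.35 to 0.76. The median level of the group was 8.45, 8.53 and 8.10 in dark sucrose and 8.90, 9.08 and 8.89 in light sucrose, so that dark replicate 9 was the lowest array and the groups did not overlap. AT1G15930, the gene for ribosomal protein S12A, was at 8.24, 8.29 and 7.41 in dark sucrose and at 9.13, 9.32 and 8.87 in light sucrose (−1.13 ± 0.19, adjusted p = 0.00012). AT3G14600, the gene for L18aC, was at 11.28, 11.33 and 10.85 in dark sucrose and at 11.84, 12.05 and 11.87 in light sucrose (−0.77 ± 0.12, adjusted p = 6.4e-05). RPL3B (−1.19 ± 0.15), AT3G55750 (−1.35 ± 0.36), AT4G26230 (−1.07 ± 0.14) and RACK1C_AT (−1.12 ± 0.20), a ribosome-bound scaffold protein, were further falls of more than 2-fold. Without replicate 9, 136 features fell, 3 of them by more than 2-fold, and the median was −0.45. Without dark sucrose replicate 9 alone, 108 fell, 2 of them by more than 2-fold. The number that fell was 90 without replicate 7 and 107 in a fit of the 6 arrays compared. Ribosomal protein genes are present as families of close copies, whose probes may share signal.

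Of 25 nucleolar ribosome biogenesis genes, 14 fell, all by less than 2-fold, beside 15.1% of all features that fell at any size. Every gene had a lower mean in dark sucrose (median −0.41, from −0.80 to −0.09). Without replicate 9 the falls again numbered 14, but they numbered 5 without dark sucrose replicate 9 alone, 5 in a fit of the 6 arrays compared, 7 without light sucrose replicate 7, 8 without light sucrose replicate 8, 3 without replicate 8 and 1 without replicate 7. FIB2, a fibrillarin that guides rRNA methylation, was at −0.78, and NUC-L1, nucleolin, at −0.49. Among 32 cell cycle and DNA replication genes, 19 fell at any size and 2 by more than 2-fold, beside 15.1% and 3.45% of all features, with a median of −0.61. Falls of more than 2-fold numbered 7 without replicate 9, 8 without light sucrose replicate 9 alone and 5 without dark sucrose replicate 9 alone. Falls of any size numbered 10 without dark sucrose replicate 9, 11 without light sucrose replicate 7, 6 without replicate 8 and 4 without replicate 7. CYCD3;1, a D-type cyclin that promotes entry into S phase, was at 8.42, 8.68 and 8.12 in dark sucrose and at 9.51, 9.74 and 9.56 in light sucrose (−1.20 ± 0.16). MCM2 (−0.84), MCM3 (−0.80) and MCM6 (−0.72), subunits of the replicative helicase, fell by less than 2-fold. The mitotic kinases CDKB1;2 (0.41) and CDKB2;1 (0.11) and the cyclin CYCB1;1 (0.09) did not pass the test.

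Nitrate and sulfate assimilation showed small rises. Of 17 genes, 8 rose at any size, 2 by more than 2-fold, beside 13.4% and 5.02% of all features, and 1 fell, with a median of 0.40. Rises of more than 2-fold numbered 4 without replicate 9 and 1 without replicate 8. APR1, the adenylylsulfate reductase that controls sulfate reduction, was at 10.59, 10.54 and 10.87 in dark sucrose and at 9.64, 9.17 and 9.36 in light sucrose (1.28 ± 0.18). NIA2, the main nitrate reductase, was at 12.87, 12.85 and 13.19 in dark sucrose and at 11.87, 11.71 and 12.28 in light sucrose (1.02 ± 0.15), but it lay under 2-fold without replicate 8 (0.95) and without any 1 of light sucrose replicate 7, light sucrose replicate 8 or dark sucrose replicate 9. NIA1 was at 0.07. None of the 36 mitochondrial genome features changed by more than 2-fold, and 2 rose at any size, beside 13.4% of all features.

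Total RNA of the same 6 cultures showed whether the polysomal change was present in the steady-state level. The steady-state level of 2451 features changed by more than 2-fold, 1450 rising (4.77% of all features) and 1001 falling (3.29%). Of the polysomal rises, 1274 were also steady-state rises, which is 83.6% of the polysomal and 87.9% of the steady-state rises. Of the polysomal falls, 762 were steady-state falls, 72.6% and 76.1%. A polysomal rise with a steady-state fall, or the reverse, occurred for 0 features. Across all features the Pearson correlation of both changes was 0.899, given as a description, since the RNA came from the same cultures and features are not independent replicates. The median steady-state change was 1.43 for the polysomal rises and −1.23 for the polysomal falls.

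The 3 largest steady-state rises, DIN2 (4.95), AT3G46080 (4.91) and AT1G56060 (4.90), and the 3 largest falls, CYP83A1 (−3.94), DFR (−3.84) and LDOX (−3.56), were all among the largest polysomal changes. For DIN2 the steady-state level was 10.52 ± 0.42 in dark sucrose and 5.57 ± 0.10 in light sucrose (SD, n = 3). Several genes, given as examples, were further apart in polysomes than in total RNA. RBCS2B changed by −3.11 in polysomes and by −1.51 in total RNA, LHCB3 by −2.02 and −0.81, CHLM by −1.59 and −0.35, and AT5MAT by −2.92 and −1.86. AT1G15930 changed by −1.13 in polysomes, with a steady-state level of 8.73 ± 0.18 in dark sucrose and 8.61 ± 0.28 in light sucrose (0.12, adjusted p = 0.72). Other falls were smaller in polysomes than in total RNA, such as those of PHS1 (−2.17 and −2.32) and CYP83A1 (−3.66 and −3.94). On the side of the rises, AT1G53540 changed by 4.83 in polysomes and by 3.77 in total RNA, HSP17.6II by 4.32 and 3.41, HSP17.4 by 3.93 and 2.85, and ZAT7 by 4.24 and 3.34. AT5G57510 went the other way, with 4.58 and 4.75. These differences are the polysomal occupancy changes tested next, where 0 features were called in the fit without a block.

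**Figure D3:**
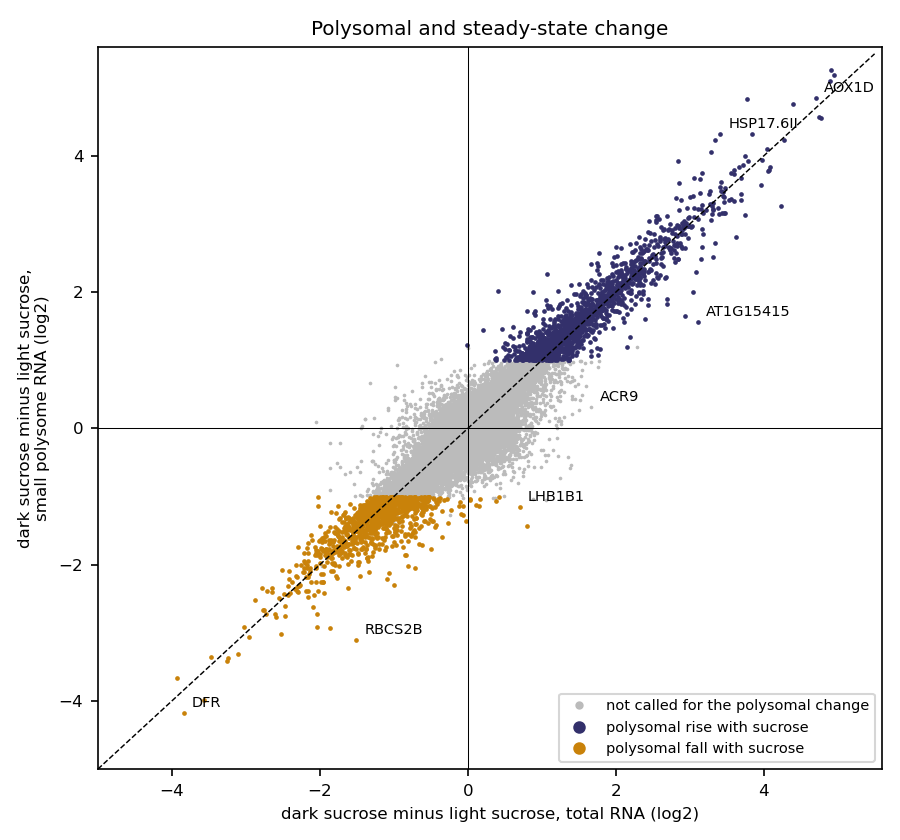
Polysomal change against steady-state change (log2, dark sucrose minus light sucrose) for 30386 features, with polysomal rises in blue, polysomal falls in orange and equal changes on the dashed line. The points follow this line (Pearson correlation 0.899). RBCS2B lies below it at −3.11 in polysomes against −1.51 in total RNA, an occupancy change that did not pass the test (limma, adjusted p = 0.94).

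Polysomal occupancy is the polysomal level over the steady-state level. Its change between dark sucrose and light sucrose was called for 0 features (0.0% of 30386) at an adjusted p under 0.05 with limma, where 1425 features had an unadjusted p under 0.05 and the smallest adjusted p was 0.075. The occupancy change was −1.60 for RBCS2B (unadjusted p = 0.013), −1.25 for AT1G15930 (0.00015) and −0.73 for AT1G73530 (0.0091). It was −1.03 for TOPP1 (6.5e-05), a protein phosphatase, −1.04 for HSA32 (0.0014), a heat stress protein that rose by 2.0 in polysomes, and 1.06 for AT1G53540 (0.00025). For the cytochrome P450 gene CYP96A12 the polysomal level was 4.35, 4.46 and 4.42 in dark sucrose and 6.65, 6.72 and 6.60 in light sucrose (−2.25 ± 0.14), and the occupancy change was 0.12 (0.55). Among other genes chosen for qRT-PCR, ECA4 (0.04), AT1G51200 (0.50), MUB1 (0.29) and AT3G25940 (−0.50) did not pass the test for the polysomal change.

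The total and the polysomal RNA of a culture shared an extract, and their deviations from the group means were correlated (0.269 to 0.488 in dark sucrose, 0.327 to 0.465 in light sucrose). When this was modelled with the culture as a random block, 65 features were called for occupancy, 56 with lower and 9 with higher occupancy in dark sucrose, and with the replicate number as a block there were 8. The names that follow were chosen after these values were seen. Lower occupancy was found for LHB1B1, an antenna gene of photosystem II (−1.85, adjusted p = 0.0099), ACR9 (−1.35, adjusted p = 0.0016), UBC28, a ubiquitin-conjugating enzyme (−1.08), CHLM (−1.25) and AT1G15930 (−1.25, adjusted p = 0.0099). ACR9 changed by 1.67 in total RNA and by 0.32 in polysomes. Of the 56 features with lower occupancy, 39 had a higher steady-state level in dark sucrose at an adjusted p under 0.05. The polysomal change did not pass the test for 28 of the 56. Both counts are partly set by the choice of features, since the polysomal and steady-state changes make up the occupancy change. Over all features, 3849 had a steady-state rise of any size at that adjusted p, and 8661 passed the polysomal test. Higher occupancy was found for AT1G21550 (1.19, adjusted p = 0.0023), GSTU3 (1.13), AGL52 (1.89) and AT1G53540 (1.06).

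Darkness without sucrose was a far smaller perturbation of the polysomal mRNA level. With sucrose, 2573 features changed by more than 2-fold, and with sorbitol, dark control against light control, 418 changed, 129 rising (0.425%) and 289 falling (0.951%). The balance of directions without sucrose turned with the threshold, with 957 rises and 847 falls at 1.5-fold and 2181 rises and 1204 falls with no fold threshold. The SD of the change over all features was 0.609 with sucrose and 0.355 without. These comparisons share no array. Of the 1524 rises with sucrose, 42 were also rises without it, which is 2.76% of the rises with sucrose and 32.6% of those without. Of the falls, 161 were shared, 15.3% of those with sucrose and 55.7% of those without. Across all features the Pearson correlation of both changes was 0.424. The median change without sucrose was 0.30 for the features that rose with sucrose and −0.50 for those that fell. The count without sucrose was 134 without replicate 8 and 274 without dark control replicate 9. Only ZAT7 rose with sucrose and fell without it, and only ST2B fell with sucrose (−1.19) and rose without it (1.69).

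The difference between both effects of darkness was tested directly. It was called for 3507 features, with 1583 above 0 (5.21%, a more positive change with sucrose) and 1924 below 0 (6.33%). Of the polysomal rises with sucrose, 1017 had a positive difference, and of the falls 422 had a negative difference. The opposite sign was called for 0 rises and 2 falls. These features were chosen for their change with sucrose, which is part of the difference, so the shared sign is partly set by that choice. The count of 3507 depended on the arrays. It was 483 without replicate 7 (349 above 0 and 134 below), 450 without replicate 8 (318 and 132), 2347 on the 12 polysomal arrays alone (1303 and 1044), 4620 without replicate 9, 2243 without dark sucrose replicate 9 alone (1178 and 1065), and 5397 with the replicate number as a block. The largest positive differences were those of ZAT7 (5.40, adjusted p = 1.0e-07), AT1G56060 (5.29) and AT3G46080 (5.05), and the largest negative differences those of DFR (−4.44, adjusted p = 0.00028), LDOX (−4.12) and GSTF12 (−2.97).

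For the heat shock genes the difference was mostly positive. Their median change was 1.19 with sucrose and −0.05 without. Of the 43, 27 had a positive and 2 a negative difference, beside 5.21% and 6.33% of all features. Without sucrose 0 rose by more than 2-fold, beside 0.425% of all features. HSP17.6II, at 9.09 to 9.21 in dark sucrose and 4.54 to 5.18 in light sucrose, had levels of 4.28, 4.07 and 4.12 in the dark control, against 4.13, 4.64 and 4.89 in the light control. BGLU28 behaved in the same manner, with 4.63, 4.97 and 4.55 in the dark control, against 4.72, 4.62 and 4.82 in the light control. Only dark sucrose was high for both genes. The other treatments overlapped for BGLU28, whereas for HSP17.6II light sucrose lay above the dark control. Of the ERF and ZAT factors 8 had a positive and 1 a negative difference, of the WRKY factors 11 and 1, of the jasmonate genes 7 and 0, and of the hypoxia genes 4 and 0, beside the same shares. These counts rest on the test whose total moved with the arrays used.

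The anthocyanin genes among the largest falls were highest in light sucrose. DFR was at 4.16, 5.32 and 3.87 in the dark control, against 4.44, 4.38 and 3.73 in the light control, which overlapped with each other and were close to the dark sucrose level of 4.44 to 5.08. GSTF12 was at 5.27, 5.67 and 4.84 in the dark control, against 5.12, 5.89 and 4.89 in the light control, and its dark sucrose level of 6.78 and 6.94 in replicates 7 and 8 lay above all of these. Over the 32 flavonoid genes the median change was −1.16 with sucrose and −0.10 without, and 12 had a negative and 1 a positive difference, beside 6.33% and 5.21% of all features. The cytosolic ribosomal proteins were similar in this respect. Their median change was −0.58 with sucrose and 0.03 without, and 89 of 234 features had a negative and 0 a positive difference, beside the same shares. The per-array median level of these features was 7.73 to 7.86 in the dark control, against 7.69 to 7.98 in the light control, below the 8.10 to 8.53 of dark sucrose and the 8.89 to 9.08 of light sucrose. The nucleolar genes had a median of −0.41 with sucrose and 0.05 without, with 2 negative differences among 25 genes, beside 6.33% of all features. The differences counted here rest on the test whose total moved with the arrays used.

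**Figure D4:**
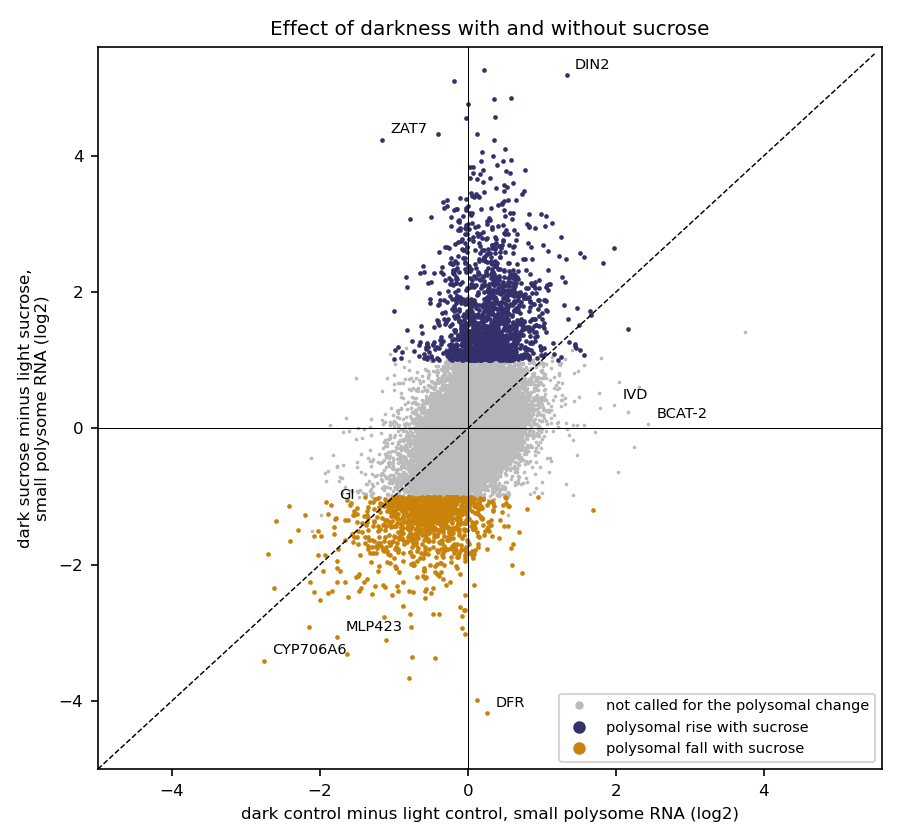
Change of polysomal mRNA level in darkness with sucrose (vertical axis) against that without sucrose (horizontal axis), in log2, for 30386 features, with rises in blue, falls in orange and equal effects on the dashed line. The rises have a median of 0.30 on the horizontal axis, ZAT7 lies at 4.24 with sucrose and −1.16 without, and CYP706A6 (−3.41 and −2.76) lies near the dashed line.

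Starch and cell cycle genes had medians below 0 in both settings. These were −0.68 with sucrose and −0.56 without for starch, and −0.61 and −0.59 for the cell cycle. The difference passed the test for 4 of 37 starch genes, all negative, and for 0 of 32 cell cycle genes. Over all features, 6.33% had a negative and 5.21% a positive difference. PHS1 was at 7.75, 7.94 and 7.55 in the dark control, against 9.25, 9.31 and 9.13 in the light control (−1.49), beside −2.17 with sucrose. CYP706A6 fell by 2.76 without sucrose and by 3.41 with it, and the difference did not pass the test (−0.65 ± 0.30, adjusted p = 0.18). The photosystem genes had medians of −0.81 with sucrose and −0.16 without, and 4 of the 44 genes had a called negative difference, beside 6.33% of all features. All these counts rest on the test whose total moved with the arrays used. Without sucrose the photosystem genes stood at a per-array median of 11.69 to 12.23 in the dark control, against 12.16 to 12.39 in the light control. PORB was at 10.37, 10.41 and 10.03 in the dark control, against 11.10, 10.96 and 11.04 in the light control (−0.76), and its difference was called (−2.16, adjusted p = 0.00064).

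Starvation genes differed in both directions. Of the 20 genes, 4 had a positive and 7 a negative difference, beside 5.21% and 6.33% of all features. The median change was 0.40 with sucrose and 0.65 without. BCAT-2 was at 8.43, 8.77 and 9.26 in the dark control, against 6.63, 6.46 and 6.05 in the light control (2.44), beside 0.06 with sucrose, and the difference was −2.38 (adjusted p = 7.2e-05). IVD rose by 1.98 and MCCA by 1.43 without sucrose, and both differences were called (−1.64 and −1.03). All arrays of both sucrose treatments lay below all control arrays for BCAT-2, IVD and MCCA. DIN2 had the opposite pattern, with 7.94, 7.98 and 8.5 in the dark control, against 6.84, 6.93 and 6.64 in the light control (1.33), beside 5.18 with sucrose (difference 3.85, adjusted p = 1.0e-07). TPS11 was at 9.19, 9.32 and 9.17 in the dark control, against 9.23, 9.59 and 8.46 in the light control, and these overlapped (0.14). With sucrose its level was lower than in the controls in the light, at 5.0 to 5.38, and nearer to them in darkness, at 7.36 to 8.95.

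**Figure D5:**
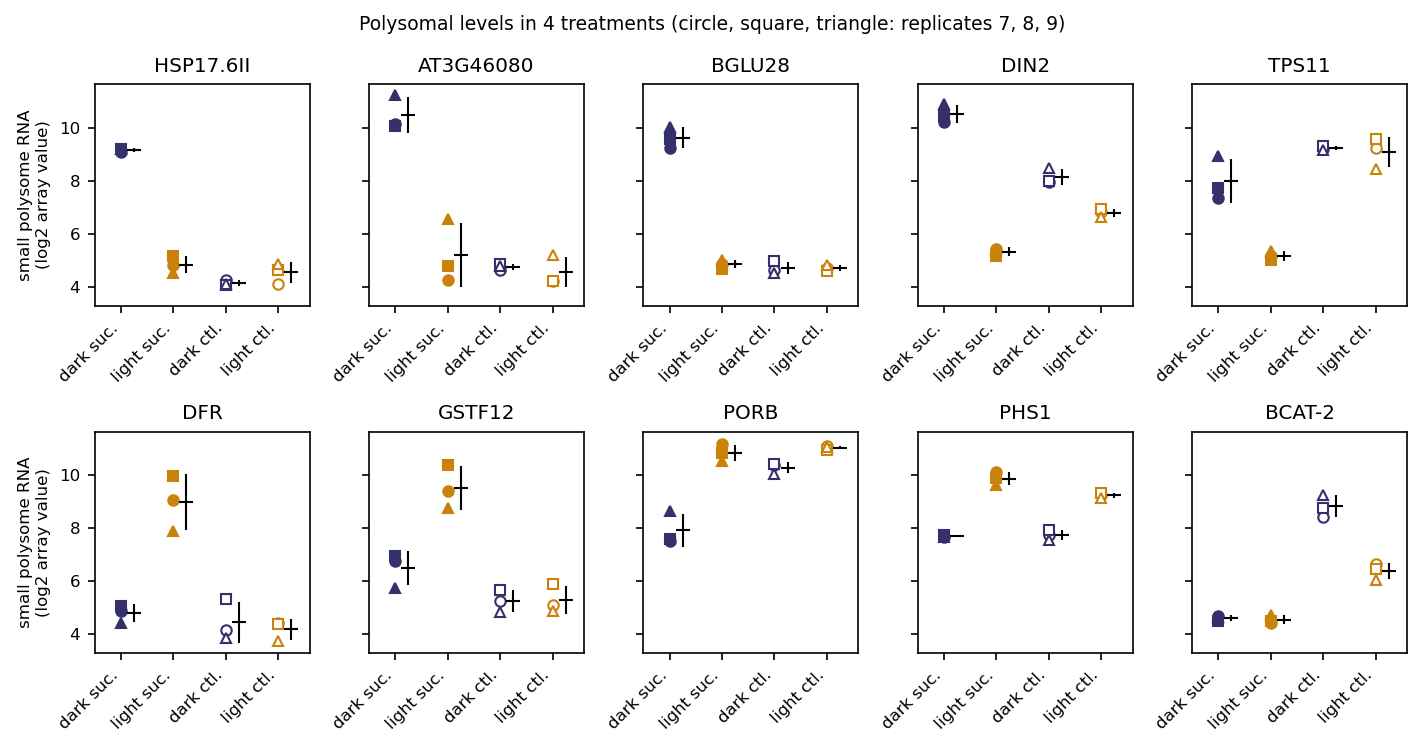
Log2 array values of small polysome RNA for 10 genes in dark sucrose, light sucrose, dark control and light control, each symbol 1 array (circle, square and triangle for replicates 7, 8 and 9) and the black mark the mean with its SD. HSP17.6II, AT3G46080 and BGLU28 are high in dark sucrose only, DFR and GSTF12 are highest in light sucrose, and BCAT-2 is at 4.42 to 4.75 in both sucrose treatments.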

How the data were processed

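Total and small polysome RNA of 12 cultures in 4 treatments had been hybridised to 24 AGRONOMICS1 tiling arrays. The deposited values are log2 levels from RMA in aroma.affymetrix (background correction, normalization and probe summarization), which the authors ran without the non-polysomal arrays. RMA and limma are also named in the submitters' notes, without versions. Of 30757 rows, 371 array controls were dropped, and 30386 features of 30174 loci were kept without a filter. A RefSeq table (TAIR10.1) named 29654 loci (98.3%). Arrays carry no counting depth, and 3 arrays a group limit the precision.

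All 24 arrays entered a single limma fit of 8 group means (limma 3.58.1, R 4.3.3), with moderated variances and Benjamini-Hochberg adjustment over all features. A polysomal or steady-state change counted as called past 2-fold with an adjusted p under 0.05, and an occupancy change or a difference between dark effects at that adjusted p alone. The fit was also run on simulated arrays with independent noise, so the correlation between total and polysomal RNA of a culture was not part of them. Among features above the median level, 30 of 200 simulated occupancy changes of 0.7 (log2) were found, and 156 of 200 of 1.4. Small occupancy changes can therefore be missed. Figures were made with Python 3.11.15 and matplotlib 3.10.9.

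The comparison, gene lists, tests and naming rule were chosen with earlier results of these data known. Named are the 12 largest rises and falls of 1 sign in all replicates, up to 5 called members a list with uncalled examples, the 3 largest changes each way for the other comparisons and the genes the study measured by qRT-PCR. Gene lists come from general knowledge, except ribosomal proteins (the study's list) and WRKY factors (by symbol). Other members are given as examples. Deviations of arrays with the same number were correlated between dark sucrose and light sucrose (0.162, 0.100 and 0.226 for polysomes; 0.069, 0.262 and 0.305 for total RNA), so the polysomal comparison was also fitted with the number as a block. Alternatives were this block, the culture as a random block, an intensity trend, a filter, other scalings and thresholds, fewer arrays, and leaving out arrays or replicates. The 6 arrays of a comparison are separate cultures. Promoter sequences were not analysed here.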

Additional observations from a re-analysis of the deposited data

Results flagged for a closer look

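The effect of darkness on polysomal mRNA levels differed between seedlings with and without sucrose for 3507 features by the test of the difference (limma, adjusted p under 0.05), and the result is listed here for that reason, together with each of the named genes that passed this test. The difference, in log2, is the change with sucrose minus the change without. It was 5.05 for AT3G46080, 3.85 for DIN2, 5.29 for AT1G56060, 4.27 for AOX1D, 4.48 for AT1G53540 and 4.76 for BGLU28. It was 4.21 for AT5G57510, 4.58 for BCA3, 4.21 for AT2G36770, 4.72 for HSP17.6II, 5.40 for ZAT7 and 3.88 for PAD3. These genes were chosen for their change with sucrose, which is part of the difference.

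Among the 12 largest falls the difference was −4.44 for DFR, −4.12 for LDOX, −2.93 for AT4G14090, −2.60 for MES10, −2.01 for RBCS2B, −1.29 for MLP423, −2.97 for GSTF12, −2.85 for AT5MAT and −2.16 for PORB. For the other falls, CYP83A1 (−2.87, adjusted p = 0.054), GER3 (−1.67, adjusted p = 0.083) and CYP706A6 (−0.65, adjusted p = 0.18), it did not pass the test. Groups of 3 arrays are too small for a test of single outlying samples.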

How the results depend on the processing

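Of the alternatives, most left the counts within 1.5 times the reported ones. The count of polysomal changes with sucrose was 2619 with the replicate block, 5632 at 1.5-fold and 8661 with no fold threshold. The steady-state count was 5384 at 1.5-fold and 8298 with no fold threshold, and the polysomal count without sucrose was 1804 (53.0% rises) and 3385 (64.4% rises), against 418 (30.9% rises) at 2-fold. At 1.5-fold, 49.8% of the polysomal changes with sucrose were rises, against 59.2% at 2-fold. The count of occupancy changes, 0 as reported, was 8 with the replicate block, 65 with the culture as a random block, 1 with an intensity trend, 1 for means above the lower quartile, 3 after quantile normalization and 1 with each array centred on its median. The count for the difference of dark effects was 5397 with the replicate block.

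With 1 array or 1 replicate number left out, the polysomal count with sucrose ranged from 2076 to 2926, the steady-state count from 1987 to 2778, the occupancy count from 0 to 3, the count for the difference of dark effects from 450 to 4620 and the polysomal count without sucrose from 134 to 587. The polysomal count without sucrose was lowest without replicate 8 (134). This was followed for the 94 features taken by the naming rule, and not for genes given only as examples. Of the 94, 14 lost their call under at least 1 of 17 alternatives, in all 31 cases when an array or replicate was left out, and 0 changed sign. The 14 were mainly genes close to 2-fold or with a wide spread, such as PCB2, GAPA-2, SIGE, CAB3 and NIA2. The limits are the 3 arrays a group, values relative within an array, and close gene copies whose probes may share signal.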

Other observations

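Further gene families were looked at after their members had been seen among the large changes, so their counts are descriptions. Of 27 tau class glutathione transferases, enzymes that conjugate glutathione to toxic compounds, 12 rose by more than 2-fold in dark sucrose and 1 fell. Over all features, 5.02% rose and 3.45% fell by more than 2-fold. The median change of the family was 0.76. GSTU4 rose by 4.05, GSTU12 by 3.12 and GSTU24 by 2.94, while GSTU20 fell by 2.5 on the log2 scale. Without sucrose the median was 0.17, with 0 changes of more than 2-fold in either direction, beside 0.425% rises and 0.951% falls over all features. A positive difference between the effects was called for 6 members, beside 5.21% of all features.

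Of 16 genes of aliphatic glucosinolate synthesis, sulfur compounds that deter herbivores, 8 fell by more than 2-fold and 1, the sulfotransferase gene SOT17, rose by 1.15. Over all features, 3.45% fell and 5.02% rose by more than 2-fold. Falls of more than 2-fold numbered 9 without replicate 9, 5 without replicate 7 and 4 without replicate 8. The median was −1.16 with sucrose and −0.20 without. The difference of the effects passed the test for 0 members, beside 5.21% of all features above 0 and 6.33% below 0. The MYB activators of this pathway, MYB28 (−1.45) and MYB29 (−1.64), fell along with the enzyme genes MAM1 (−1.89) and CYP79F1 (−1.44).

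Of 22 alpha expansins, which loosen the cell wall during growth, 4 fell by more than 2-fold and 1 rose, beside 3.45% and 5.02% of all features. Their median change was −0.24. EXP3 fell by 2.72 on the log2 scale and EXPA8 by 1.45, and EXPA16 rose by 1.27 with sucrose and by 1.37 without.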
